A study of Mus musculus with 4 samples.

Results

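The genes described here are 8 transcription factors and regulators on the output side of the circadian clock: the PAR-bZIP factors Dbp, Tef and Hlf, the related bZIP repressor Nfil3, the DEC repressors Bhlhe40 and Bhlhe41, the nuclear receptor Rora and the repressor Ciart. They were taken by gene symbol from the annotation of the arrays, where all 8 had at least 1 probe and 17 probes in all, out of 27278 gene symbols. They were measured in cultured vascular smooth muscle cells grown out of the adult mouse aorta, in 2 cultures given PGE2 and in 2 control cultures left without treatment, each labelled with a time of 24 h. Every culture, treated or not, was of strain C57BL/6J and genotype EP4-Tg and was kept in what the labels call 10% DMEM. EP4 is a Gs-coupled receptor for prostaglandin E2 (PGE2). The dose of PGE2, the promoter and species of the transgene and the hour of day of harvest are not given in the sources used here. The design text calls them biological replicates, without saying whether they came from separate animals. Each p-value therefore rests on the spread between these cultures alone, which the fit pools in part over all tested genes. Since 1 time was sampled, a shift in the level of a rhythmic transcript and a shift in its phase cannot be told apart.

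In the circadian clock, the bHLH activators CLOCK and BMAL1 bind E-boxes and drive the genes of their own repressors, the PER and CRY proteins. They also drive a layer of output factors. DBP, TEF and HLF activate genes through a DNA element called the D-box, and NFIL3, also known as E4BP4, occupies the same element as a repressor. BHLHE40 and BHLHE41, also known as DEC1 and DEC2, and CIART, also known as CHRONO, repress CLOCK and BMAL1 activity, and RORA activates Bmal1 through ROR elements. The arterial wall and its cultured smooth muscle cells are known to carry such a clock.

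The promoters of the genes the results turn on show which of these elements lie next to the start. RefSeq (GRCm38.p6) promoter windows were held for 7 of the 8 genes, all but Bhlhe40, with 2 windows for Tef. The 250 bases before the start were searched on both strands for the E-box CACGTG, the D-box (TTATGTAA, TTATGCAA or TTACGTAA), the core AGGTCA of the ROR element, the cyclic AMP response element TGACGTCA and its short form TGACG, which lies inside it. The windows below are printed 5′ to 3′ on the gene's own strand, for the genes with a match whose results are compared, and capitals mark the matches.
Nfil3: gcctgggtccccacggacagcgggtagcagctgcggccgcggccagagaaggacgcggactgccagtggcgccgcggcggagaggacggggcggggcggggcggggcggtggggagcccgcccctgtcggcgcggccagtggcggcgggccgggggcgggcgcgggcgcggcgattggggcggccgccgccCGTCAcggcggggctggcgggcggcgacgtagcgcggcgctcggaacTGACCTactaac
Ciart: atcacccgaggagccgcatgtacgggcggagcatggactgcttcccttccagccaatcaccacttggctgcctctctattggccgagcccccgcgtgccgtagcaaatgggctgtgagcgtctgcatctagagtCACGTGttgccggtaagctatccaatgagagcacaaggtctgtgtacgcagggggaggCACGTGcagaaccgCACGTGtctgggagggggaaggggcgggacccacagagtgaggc
Bhlhe41: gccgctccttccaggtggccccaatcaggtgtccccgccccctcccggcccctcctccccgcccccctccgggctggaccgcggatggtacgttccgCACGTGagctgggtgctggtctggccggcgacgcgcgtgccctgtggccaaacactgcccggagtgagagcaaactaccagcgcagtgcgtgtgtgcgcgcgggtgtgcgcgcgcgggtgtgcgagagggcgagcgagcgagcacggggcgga
Tef first window: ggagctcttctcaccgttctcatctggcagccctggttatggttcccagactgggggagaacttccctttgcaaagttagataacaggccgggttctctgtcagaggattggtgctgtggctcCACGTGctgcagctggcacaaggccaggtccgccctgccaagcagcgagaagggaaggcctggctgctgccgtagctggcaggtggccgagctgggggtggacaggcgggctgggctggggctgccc
Tef second window: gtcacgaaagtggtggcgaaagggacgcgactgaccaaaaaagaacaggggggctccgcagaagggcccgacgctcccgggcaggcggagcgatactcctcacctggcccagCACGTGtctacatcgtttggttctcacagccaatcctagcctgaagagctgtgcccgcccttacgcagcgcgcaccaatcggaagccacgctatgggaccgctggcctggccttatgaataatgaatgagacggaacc
The Nfil3 window (chr13:52981040-52981289, minus strand) held 1 short cyclic AMP response element, from -59 to -55 counted back from the start, and 1 ROR element core from -12 to -7, both read on the other strand. That of Ciart (chr3:95882229-95882478, minus strand) held 3 E-boxes, whose first bases lay at -116, -58 and -44. Bhlhe41 (chr6:145865421-145865670, minus strand) had 1 E-box from -153 to -148. Each Tef window (chr15:81802423-81802672, plus strand, and chr15:81811164-81811413, plus strand) had 1, from -127 to -122 and from -138 to -133. In the Hlf window a full cyclic AMP response element ran from -9 to -2, and the Dbp and Rora windows held none of the motifs. Of 32851 windows of this length over all genes, 6.02% held the E-box, 14.0% the ROR element core, 17.8% the short and 1.55% the full cyclic AMP response element, and 1.61% a D-box. These matches describe letters and not binding.

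Values are log2 signals scaled to each array's 75th percentile, so that 0 is that percentile and 1 unit is a doubling. They can be compared between arrays for 1 probe but not between probes. Each array had 59305 non-control spots, of which 47.9% to 53.8% were well clear of background, with no saturated spot. Each difference is PGE2 minus control, with its standard error (SE) from a limma fit over 17660 tested genes or unnamed probes (n = 2 per group). The labelled cell type was checked against 10 smooth muscle markers, of which 6 were tested. Acta2, the smooth muscle actin gene, averaged 6.10 with PGE2 and 8.20 in control, and Itga8, an integrin gene, was the 1 marker of this list called lower. Myocd, the smooth muscle cofactor gene, was above background on no array, and Myh11, the smooth muscle myosin gene, on at most 1 array per group for any of its 4 probes. The summed linear signal of the 10 markers, in multiples of the 75th percentile, was 131 and 174 with PGE2 against 720 and 411 in control, and the 6 tested genes had a median difference of -1.95. Such a sum is carried by its brightest probes. That of 8 endothelial markers was 0.351 and 1.05 with PGE2 against 0.970 and 0.829 in control, with Tek, Emcn and Tie1 above background on no array. For 8 macrophage and leukocyte markers it was 61.5 and 41.3 with PGE2 against 77.7 and 63.9 in control. Of these, Adgre1, Lyz2 and Mrc1 were above background on no array. The 5 others were on all 4 arrays, with differences of 2.09 for Cd68, 0.98 for Csf1r, 0.62 for Cd14, -0.36 for Ptprc and -0.61 for Itgam, the brightest of them, and a median of 0.62, opposite in sign to the shift of the sum. For 6 fibroblast markers it was 53.5 and 44.2 with PGE2 against 202 and 91.8 in control, with Dpt above background on no array. The 5 others differed by 4.20 for Ly6a, which was called higher, 2.78 for Pi16, 0.60 for Pdgfra, -2.17 for Lum and -2.91 for Dcn, with a median of 0.60, so that this sum too shifted against the median. The part of any shift in cell make-up in the results below was not tested, and in such bulk RNA fewer cells of a type and less RNA per cell cannot be told apart.

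With PGE2, 5 of the 8 genes stood above control on both arrays, Nfil3 with the largest difference. Bhlhe40 and Dbp came next, and Bhlhe41 and Ciart, both near background, had smaller differences. The order within either pair was not settled, and differences between genes were not tested. Tef and Rora overlapped between the groups, and Hlf could not be compared. None of the 7 tested genes passed an adjusted p of 0.05 over all tested genes (limma with Benjamini-Hochberg adjustment), in either direction. Over all tested genes 0.396% were called higher and 0.272% lower, 0.668% in all. At an unadjusted p under 0.05, 5 of the 7 were higher and 0 lower, where 7.31% of all tested genes were higher and 10.5% lower. That count of 5 was 2 without PGE2 replicate 1 and 3 without control replicate 2, with normexp or with a variance trend. Both PGE2 arrays lay above both control arrays for 5 of the 7 and below them for 0, against 24% above and 28.3% below, or 52.2% without overlap, among all tested genes. Bhlhe41 and Ciart passed the filter on dim probes only through the PGE2 arrays, which favours a higher value there. These counts are therefore descriptions and not support. The dimmest signal above background was -4.07 and -4.63 on the PGE2 arrays, against -4.02 and -3.63 on the control arrays. The 5 genes above background on all 4 arrays were Nfil3, Bhlhe40, Dbp, Tef and Rora. Of these, the first 3 had both PGE2 arrays above both control arrays, against 23.5% of genes so measured. The median difference of the 7 tested genes, 0.74, was the value of Bhlhe41 itself and was 0.12 with normexp, beside -0.03 over all tested genes.

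**Figure D1:**
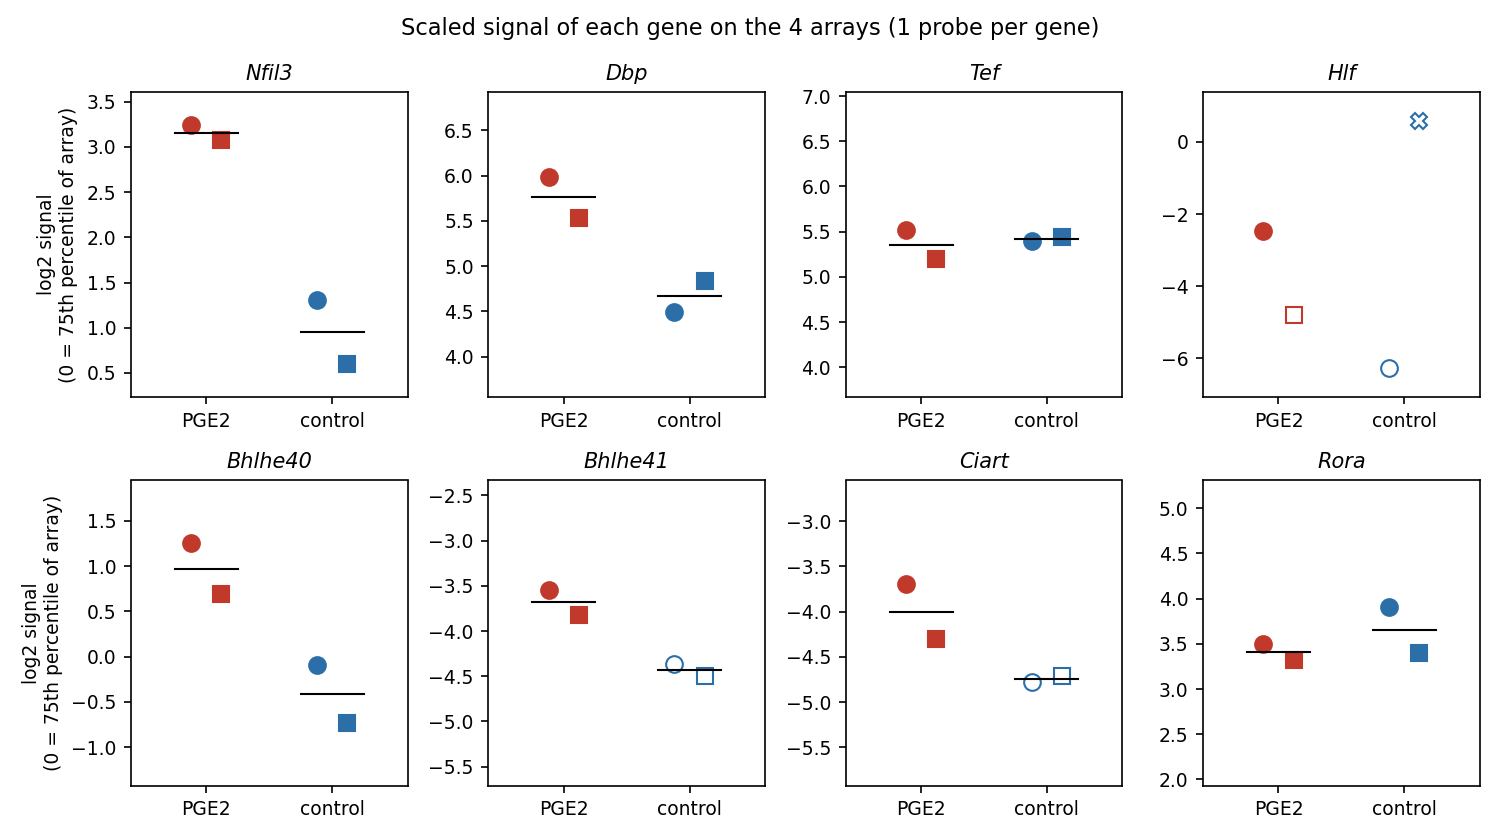
Log2 signal (0 = 75th percentile of the array) of 1 probe for each of the 8 genes, with PGE2 left of control. Circles are replicate 1 and squares replicate 2, open symbols were not well above background, the cross for Hlf is a spot flagged as not uniform, and bars are group means (n = 2); each panel has its own vertical range. Nfil3, Dbp and Bhlhe40 were above background on all 4 arrays with both PGE2 values above both control values.

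Nfil3, the D-box repressor gene on chromosome 13, had the largest difference of the 8 genes. Its tested probe read 3.24 and 3.07 on the PGE2 arrays, against 1.31 and 0.59 on the control arrays. The PGE2 arrays lay close together, and the lower of them was 1.76 above the higher control array. The means were 3.16 ± 0.12 with PGE2 and 0.95 ± 0.51 in control (SD, n = 2 each). The difference was 2.21 ± 0.30 (SE), a 4.61-fold higher signal with a 95% interval from 2.63-fold to 8.09-fold, and it exceeded the differences of 98.6% of tested genes. By p it stood at rank 325 of 17660, where 118 genes were called. Its adjusted p = 0.0812 (limma) did not pass the threshold. A second Nfil3 probe read 3.06 and 2.76 with PGE2, against 1.03 and 0.43 in control, a difference of 2.18 ± 0.28. Both probes target the same RefSeq transcript and gave nearly the same difference, although they share the 4 RNA samples and so are no independent replicates. Over 15 alternative settings the Nfil3 difference ranged from 1.85, without control replicate 2, to 2.56, without control replicate 1. Its adjusted p ranged from 0.0573 to 0.324 over these (limma), so that no setting brought it past the threshold.

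Dbp, the PAR-bZIP activator whose transcript is known for a strong daily rhythm in many tissues and whose gene lies on chromosome 7, was bright on every array. Its tested probe read 5.98 and 5.54 with PGE2, against 4.49 and 4.84 in control. The groups did not overlap, with a gap of 0.70 between the lower PGE2 and the higher control array. The means were 5.76 ± 0.31 with PGE2 and 4.67 ± 0.24 in control (SD, n = 2 each). The difference was 1.09 ± 0.25 (SE), or 2.13-fold with a 95% interval from 1.34-fold to 3.40-fold, and the adjusted p was 0.159 (limma). A second Dbp probe to the same transcript read 5.91 and 5.42 with PGE2, against 4.46 and 4.84 in control, a difference of 1.02 ± 0.26. In both probes replicate 1 was the higher of the PGE2 arrays and the lower of the control arrays. The Dbp difference thus depended on which array was left out, from 0.87 without PGE2 replicate 1 to 1.31 without PGE2 replicate 2. Dbp and Nfil3, which act on the same D-box in opposite ways, both stood above control, with differences of 1.09 for the activator and 2.21 for the repressor. The difference between those 2 values was not tested.

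Tef, the PAR-bZIP factor first known from the embryonic pituitary, with its gene on chromosome 15, did not separate the groups on any of its 4 probes. The tested probe, annotated to transcript variant 1, read 5.52 and 5.20 with PGE2, against 5.39 and 5.44 in control. Both control arrays lay between the PGE2 arrays. The difference was -0.06 ± 0.19 with an adjusted p = 0.892 (limma), and its 95% interval of 0.675-fold to 1.36-fold leaves room for moderate shifts either way. The brighter of the pair of probes annotated to variant 2 read 2.82 and 2.53 with PGE2, against 2.69 and 2.84 in control, a difference of -0.09 ± 0.19. The dimmer one differed by -0.05 ± 0.18. A probe to an Ensembl transcript of the gene read -0.65 and -0.47 with PGE2, against -0.88 and 0.13 in control, a difference of -0.19 ± 0.38. Thus neither annotated RefSeq variant differed by more than its error. The sign of the tested value depended on the scaling, with 0.13 after quantile normalization and 0.20 on the authors' deposited scaled signal.

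Hlf, the third PAR-bZIP factor, on chromosome 11, had a single probe and could not be compared. It read -2.47 and -4.80 with PGE2, the first above background and the second not, against -6.26 in control replicate 1, which was not above background. The spot of control replicate 2 read 0.57 but carried the scanner's flag for a spot that is not uniform, and was left out of the fit.

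**Figure D2:**
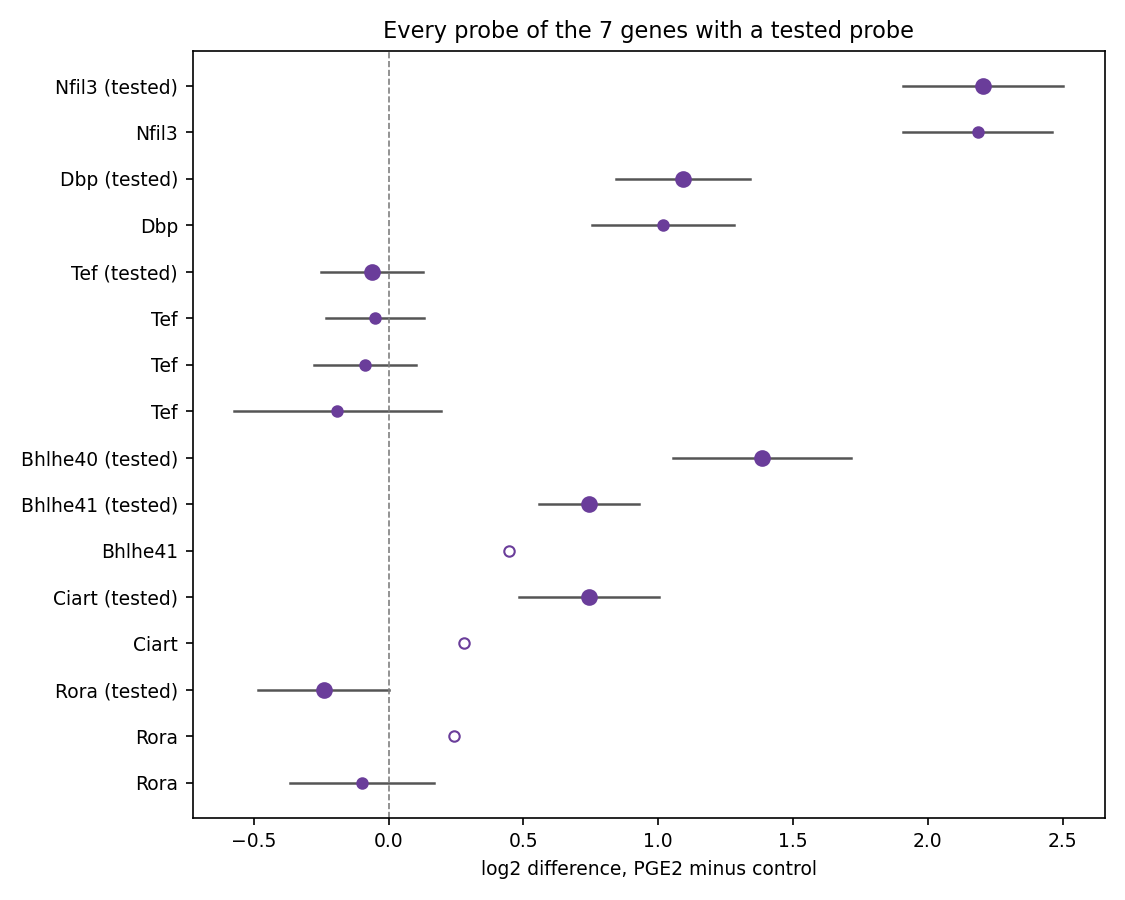
Log2 difference, PGE2 minus control, of each of the 16 probes of the 7 tested genes, 1 row per probe. Filled points passed the filter on dim probes and bars are ± 1 SE of a limma fit over all kept probes (n = 2 per group), and open points did not pass and have no SE; the 2 probes of Nfil3 and the 2 of Dbp lie close together, and the 4 of Tef lie around 0.

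Bhlhe40, the DEC1 repressor that also responds to many growth and stress signals and lies on chromosome 6, read 1.25 and 0.69 with PGE2, against -0.10 and -0.73 in control. It had 1 probe, above background on all 4 arrays. The lower PGE2 array was 0.79 above the higher control array, while arrays within a group were apart by nearly as much. The means were 0.97 ± 0.40 with PGE2 and -0.41 ± 0.45 in control (SD, n = 2 each). The difference was 1.38 ± 0.33 (SE), or 2.61-fold with a 95% interval from 1.40-fold to 4.88-fold, larger than in 97.0% of tested genes, and the adjusted p was 0.167 (limma). It ran from 1.07 without control replicate 2 to 1.70 without control replicate 1.

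Bhlhe41, the DEC2 repressor gene, also on chromosome 6, was dim. Its tested probe, annotated to transcript variant 1, read -3.55 and -3.82 with PGE2, both above background, against -4.36 and -4.50 in control, neither above background. From the dimmest signal above background on each control array the PGE2 mean was higher by a factor of at least 1.10. Without control replicate 1 this limit was under 1. The other probe, annotated to variant 2, read -4.60 and -4.37 with PGE2, against -4.90 and -4.97 in control, and was above background on 1 PGE2 array only. On both Bhlhe41 probes the PGE2 arrays read above the control arrays, at signals near the background. The probes share the same RNA samples, so this likeness is a description and not support. The fitted difference of the tested probe was 0.74 ± 0.18 (adjusted p = 0.174, limma), and 0.12 with normexp. The offset of 50 added with normexp by itself shrinks differences between signals this dim. The probe passed the filter only through the PGE2 arrays, so its p is a description and not support.

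Ciart, the CHRONO repressor whose window printed above on chromosome 3 holds 3 E-boxes, was as close to background. Its tested probe read -3.69 and -4.30 with PGE2, both above background, against -4.78 and -4.71 in control, neither above background. Its PGE2 mean did not exceed the limit that the control arrays allow, so no fold is given. The fitted difference was 0.74 ± 0.26 (adjusted p = 0.268, limma), and 0.04 with normexp and its offset. Ciart too passed the filter only through the PGE2 arrays. A second probe to the same transcript was above background on no array, at -5.68 and -5.50 with PGE2 against -6.08 and -5.66 in control. Its groups overlapped slightly.

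Rora, the activator of Bmal1 through ROR elements, with its gene on chromosome 9, overlapped between the groups on its 3 probes. The tested probe read 3.50 and 3.33 with PGE2, against 3.91 and 3.40 in control. The difference was -0.24 ± 0.24 with an adjusted p = 0.646 (limma) and a 95% interval from 0.537-fold to 1.34-fold. A second probe annotated to variant 1 read 0.63 and 0.51 with PGE2, against 0.98 and 0.35 in control, a difference of -0.10 ± 0.27. The probe annotated to variant 3 was above background on PGE2 replicate 2 and control replicate 2 only, reading -4.26 and -3.14 with PGE2 against -5.24 and -2.64 in control. On that probe replicate 2 was the brighter array in both groups. The tested difference turned to 0.017 without control replicate 1 and to 0.018 on the authors' deposited scaled signal.

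**Figure D3:**
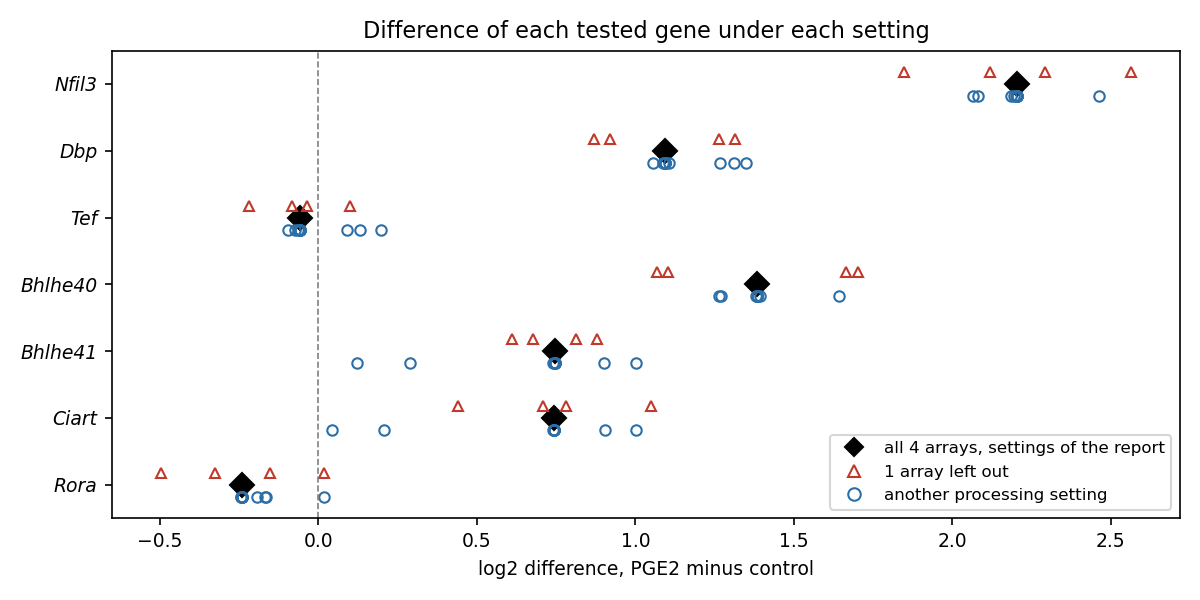
Log2 difference, PGE2 minus control, of each of the 7 tested genes with all 4 arrays (diamonds), with 1 array left out (triangles) and under the other processing settings (circles). Nfil3 stayed between 1.85 and 2.56, Bhlhe41 and Ciart reached 0.12 and 0.04 with normexp, and Tef and Rora lie on both sides of 0.

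The rest of the clock was described by a list of 20 core clock genes and a list of 15 clock output genes. Of 18 tested core clock genes none was called by limma, while 6 were higher and 1 lower at an unadjusted p under 0.05, with a median difference of 0.39. Over all tested genes the shares at that p were 7.31% higher and 10.5% lower. The lower one was Cry1, a repressor gene named here after its value was seen, which was above background on both control arrays and on neither PGE2 array. It read -4.15 and -4.81 with PGE2, against -3.40 and -1.78 in control. Its signal was at least 3.39-fold lower with PGE2, a limit that was 1.93-fold without control replicate 2 and 5.96-fold without control replicate 1. The fitted difference was -1.89 ± 0.63 (adjusted p = 0.251, limma). Cry1 passed the filter on dim probes only through the control arrays, so its p and its place in the count are descriptions and not support. Per1, a repressor gene that responds quickly to cyclic AMP, read 2.60 and 2.42 with PGE2, against 1.02 and 0.96 in control. Its difference was 1.52 ± 0.16 (limma adjusted p = 0.0616). Csnk1e, a kinase gene that acts on PER proteins, stood at 0.91 ± 0.18 (adjusted p = 0.132). For Nr1d1, which encodes REV-ERB alpha, the repressor that competes with RORA for ROR elements and is known to hold down Nfil3, the difference was 1.00 ± 0.25 (adjusted p = 0.178). With a trend in the variance model Per1 was called, at an adjusted p = 0.0433. Over the 18 tested genes of the list, 12 values lay above 0 and 6 below. Among those below were the activator genes Clock, at -0.36 ± 0.16, and Arntl, which encodes BMAL1, at -0.34 ± 0.40 (limma adjusted p = 0.338 and 0.692). The groups overlapped for Arntl but not for Clock. Clock and Arntl were named after their values were seen.

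The clock output list held clock-controlled genes and reported targets of PAR-bZIP or DEC factors. Of its 14 tested genes 0 were called, 1 was higher and 2 were lower at an unadjusted p under 0.05 (limma), with a median of 0.04. These counts are near those same shares of all tested genes. Pparg, a nuclear receptor gene of fat storage, read -2.25 and -2.28 with PGE2, against -0.54 and -1.31 in control, a difference of -1.34 ± 0.31 (adjusted p = 0.162, limma). Nampt, the gene of the enzyme that limits NAD salvage, stood at -0.70 ± 0.22 (adjusted p = 0.242). Tsc22d3, the glucocorticoid-induced leucine zipper gene, stood at 0.84 ± 0.27 (adjusted p = 0.244). Por and Alas1, which are known targets of PAR-bZIP factors in mouse liver, differed by 0.46 ± 0.26 and 0.12 ± 0.26 (adjusted p = 0.437 and 0.844). Both were above background on all 4 arrays, and the groups overlapped for Alas1 but not for Por. Por and Alas1 were picked after their values were seen. Over the 14 tested genes of the list, 7 values lay above 0 and 7 below.

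**Figure D4:**
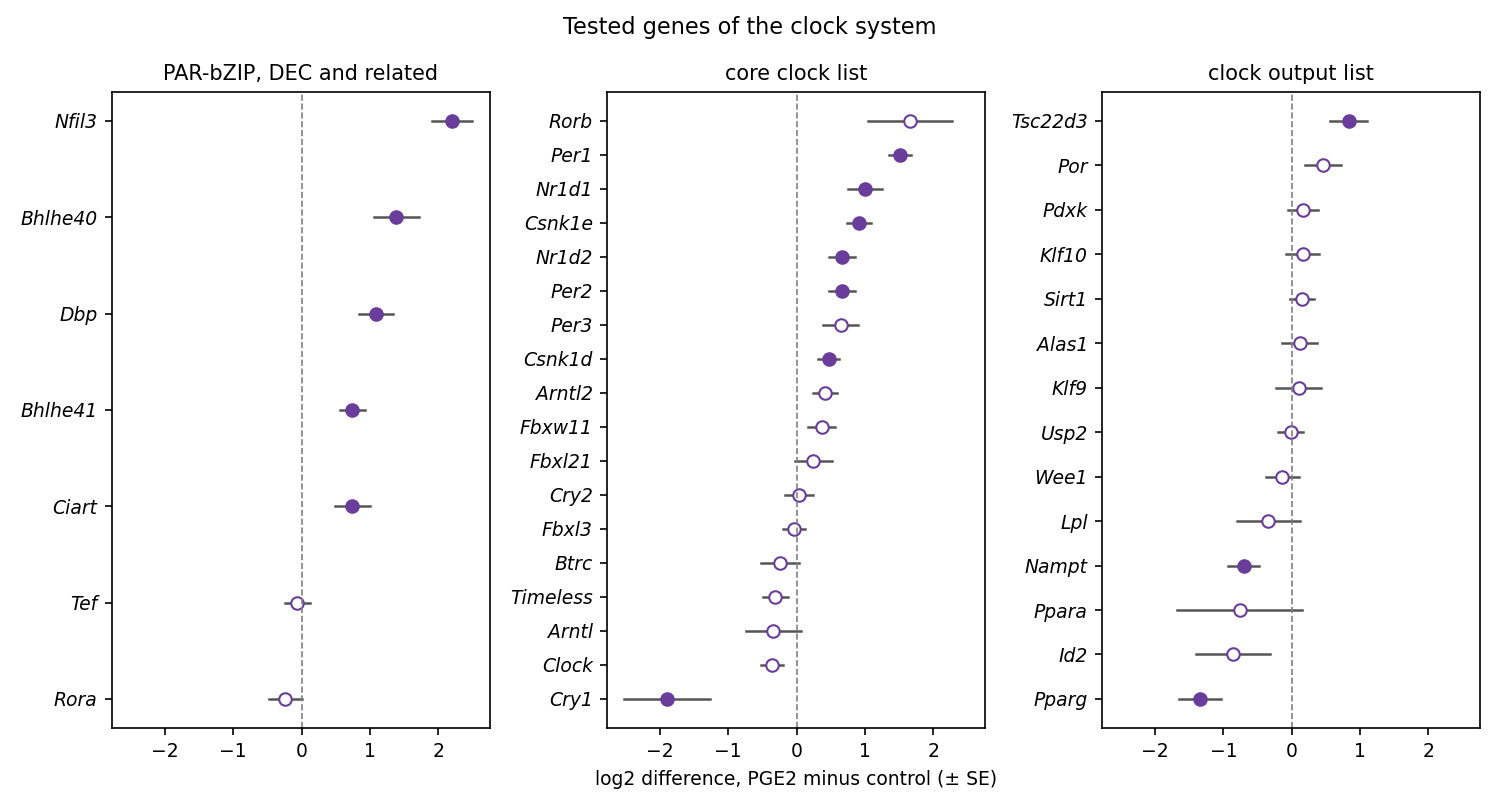
Log2 difference, PGE2 minus control, with ± 1 SE (n = 2 per group) for the 7 tested genes of the PAR-bZIP, DEC and related factors, 18 core clock genes and 14 clock output genes. Filled points have an unadjusted p under 0.05 in the limma fit, and none passed after adjustment; most core clock values lie above 0, while the clock output values lie on both sides of it.

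The genes whose pattern over the 4 arrays lay nearest to that of Nfil3 were Gpr155, Arid5a and Cacng2. Likeness was the Euclidean distance between log2 values centred on each gene's own mean, which was 0.23, 0.23 and 0.27 for these, and 15 of 12599 named genes lay within 0.5. Arid5a, an RNA-binding protein gene known for stabilising Il6 transcripts in mouse, was above background on all 4 arrays. It read 2.39 and 2.26 with PGE2, against 0.21 and -0.23 in control. Gpr155 was not above background on either control array, and Cacng2 was on 1 of them.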

How the data were processed

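Single-colour Agilent arrays of 4 cultures (2 PGE2, 2 control) were used, with groups taken from the sample titles. The scanner output deposited for each array gives background-corrected intensity. Its headers name version 11.5.1.1 of Agilent Feature Extraction (protocol GE1_1105_Oct12, design 074809, mm9 positions), and the submitters' processing notes give 12.0.3.1. The authors' series-wide values are that intensity scaled by an array-wide constant (0.945 to 1.07), so their scale and direction are known. Their column medians are 39.9 and 40.5 for PGE2 and 32.7 and 42.9 for control. The 4 columns of detection calls were not used. The well-above-background, outlier and saturation flags are deposited as 0 or 1.

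All arrays share 1 scan identifier, so no scan batch could be tested, and no 2 arrays were identical. Control spots were left out, spots of 1 probe averaged and 158 probes with outlier flags dropped. Processed intensity was put on the log2 scale and the 75th percentile of its array subtracted. A probe was kept if both PGE2 arrays, or both control arrays, had it above background (26100 probes), and the brightest kept probe of each gene was tested, which gave 17660. Gene IDs of RefSeq (GRCm38.p6) matched 44970 of 47700 named spots. The comparison used limma 3.58.1 in R 4.3.3 (data.table, version 1.17.8) with Benjamini-Hochberg adjustment and a threshold of 0.05, and the steps were tested on simulated data. The genes and lists were chosen with earlier results of these data known. All 8 genes are named, with the 3 smallest p of each list, called genes and the 3 genes nearest in pattern to the one with the smallest p. Cry1, Clock, Arntl, Por and Alas1 were chosen after their values were seen. A gene dim in 1 group has a bound, from the brighter group's mean against the dimmest signal above background on each array of the dim group, or the probe itself if brighter. Same-numbered arrays deviated from their group means together at r = 0.42 over genes. With 2 arrays per group, both pairs give this same value by construction and are not separate observations. The labels do not say that numbers pair cultures, so the fit had no block. Alternatives covered scaling, background correction, filter, probe choice, variance model, block and leaving out each array. Those were chosen with the earlier results known, and keeping flagged spots was added later. Normexp was run on the median spot signal with an offset of 50, which draws differences between dim signals toward 0. The number of arrays limits the precision.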

Additional observations from a re-analysis of the deposited data

How the results depend on the processing

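In none of the 15 alternatives was any of the 8 genes called by limma, and Nfil3, Dbp, Bhlhe40, Bhlhe41 and Ciart kept a value above 0 wherever they were tested. For these 5 genes both PGE2 arrays lay above both control arrays, so leaving out 1 array could not turn the sign. The deposited scale raised every difference, so it could not do so either. Those settings are therefore no test of the direction. Requiring a signal above background on all 4 arrays left Bhlhe41 and Ciart untested. Tef turned to 0.13 with quantile normalization, to 0.092 where normexp preceded it and to 0.20 on the authors' deposited scale, and Rora to 0.018 on that scale. With 1 array left out, Tef ran from -0.22 to 0.10 and Rora from -0.50 to 0.017. The deposited scale moved the median difference of all tested genes to 0.23, against -0.03 with the 75th percentile shift, so its values include that shift. Over all genes, 70 higher and 48 lower calls became 0 and 0 on the deposited scale, with 4204 genes at an unadjusted p under 0.05, and 0 and 0 without the filter on dim probes, with 2685 such genes. They became 39 and 15 with the filter for all 4 arrays. With the replicate block they became 88 and 84, and the adjusted p was 0.0573 for Nfil3 and 0.0616 for Bhlhe40, so that no call on the 8 genes changed. Leaving out 1 array gave 0 to 98 higher and 0 to 76 lower calls, with none without control replicate 1 or control replicate 2 (2712 and 2963 at an unadjusted p under 0.05). The core clock median was 0.33 with normexp, 0.32 with normexp and quantile normalization, 0.65 on the deposited scale, 0.31 without the filter and 0.30 to 0.49 with 1 array left out, and 1 core clock gene was called higher with a variance trend. The clock output median was 0.30 on the deposited scale and -0.11 to 0.15 with 1 array left out. The deposited scale uses an array-wide constant, so on it every difference moved by the same amount, those of Tef and Rora included. The cause of the other shifts was not tested. At an unadjusted p under 0.05, 5 of the 7 tested genes were higher with all 4 arrays, and 2 to 5 over these alternatives. The control signals of Bhlhe41 and Ciart were not above background, which limits what their differences can show.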
